A study of Arabidopsis thaliana with 8 samples.

Results

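Expression of 3 genes whose protein classes hold known actors on surface lipids was followed in dark-grown Arabidopsis thaliana seedlings. AT5G41900 and AT4G36610 encode alpha/beta-hydrolases, and AT5G13900 encodes a lipid-transfer protein. Each was read by 1 probe set that names 1 gene in the array annotation (249278_at, 246203_at and 250230_at), and they are 3 of 13286 genes that the annotation names in this way and that matched a RefSeq locus. They were chosen because they were among the named genes with the largest decreases after ethylene. Their ethylene and air values are therefore given as a description, without a test, and only comparisons that did not enter the choice are tested.

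The ethylene group was 4 arrays of wild-type Col-0 seedlings that grew for 68 h in air in the dark and then received ethylene at 10 ppm for 4 h. The air group was 4 arrays of Col-0 seedlings kept for 72 h in the dark without ethylene. Seedlings of both groups were 3 days old, and the labels name whole seedlings and no organ. Each group came from 2 experiments with 2 replicas each, so that ethylene 2-1 is the first replica of the second experiment. No label says that the replicas were separate cultures, so p-values measure only the spread between these samples, which may be technical.

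Alpha/beta-hydrolases are a large superfamily of enzymes that share one fold and usually cleave ester or related bonds, among them lipases and esterases. BODYGUARD, a member of this superfamily in Arabidopsis, sits in the outer epidermal wall and is needed for an intact cuticle, the layer of cutin and wax on aerial surfaces. Lipid-transfer proteins are small secreted proteins that hold a lipid in a hydrophobic pocket, and several are known to take part in bringing cuticular lipids to the surface. The array and RefSeq gene tables list the 3 genes by locus only. Their classes are those under which they were chosen, no sequence was used here to check them, and no lipid was measured.

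The deposited intensities had a common scale. Trimmed by 2% at both ends, the values of each array averaged 2500.2, and the medians were 833 to 980. Probe sets were compared as log2(intensity + 16), and 15922 passed a filter that left out array controls and the 30% with the lowest mean. All 3 genes passed it. The filter admitted probe sets whose mean over the 8 arrays was at least 8.05 on this scale, an intensity of 249. AT5G41900 passed through its air arrays, since its mean intensity in ethylene, 247, was below that. Of 7 loci listed for the ethylene response, only RTE1, which regulates the receptor ETR1, had a named probe set. Its intensity was 12680 ± 2741 in ethylene and 3036 ± 401 in air (mean ± SD, n = 4 each). The list was written with earlier results of these data known, so RTE1 is no independent check of the treatment.

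AT5G41900, the first of the 2 hydrolase genes, was lower in ethylene in both experiments and was uneven between them. In ethylene its intensity was 372.9 and 455.1 on the arrays of experiment 2 and 102.3 and 58.4 on those of experiment 1. In air it was 1664.5 and 1875.0 in experiment 2 and 932.4 and 1137.5 in experiment 1. Every ethylene array lay below every air array, and in both groups the arrays of experiment 2 lay above those of experiment 1. The group means were 247 ± 196 in ethylene and 1402 ± 441 in air (SD, n = 4 each). The log2 difference, ethylene minus air, was −2.77 (limma SE 0.55), and 17.6% of the mean intensity in air was left in ethylene.

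The ethylene values of AT5G41900 in experiment 1 were below the lower quartiles of their arrays, which were 206 on ethylene 1-1 and 196 on ethylene 1-2. A dim value can hold mostly background, and no detection call marks where that begins. These 2 arrays were the dimmest of the 8 for this gene, and the size of the decrease in experiment 1 is poorly fixed. In ethylene the 2 replicas of experiment 1 differed 1.75-fold, against 1.22-fold for those of experiment 2.

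AT4G36610, the other hydrolase gene, had arrays that lay close together within each group. Its intensity in ethylene was 744.5 and 935.6 in experiment 2 and 885.5 and 1077.3 in experiment 1. In air it was 5437.5 and 4318.0 in experiment 2 and 4273.5 and 4376.0 in experiment 1. The lowest air array was 3.97 times as bright as the highest ethylene array, so the groups lay far apart. The means were 911 ± 137 in ethylene and 4601 ± 559 in air (SD, n = 4 each), and the log2 difference was −2.32 (limma SE 0.16). Ethylene seedlings kept 19.8% of the mean intensity in air.

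AT5G13900, the lipid-transfer protein gene, was also lower in ethylene in both experiments. In ethylene its intensity was 482.1 and 348.9 in experiment 2 and 796.0 and 881.7 in experiment 1. The air arrays gave 4687.4 and 3955.4 in experiment 2 and 3909.4 and 5144.5 in experiment 1. The experiments overlapped in air, while in ethylene both arrays of experiment 2 were below both arrays of experiment 1. The means were 627 ± 253 in ethylene and 4424 ± 598 in air (SD, n = 4 each). The log2 difference was −2.87 (limma SE 0.28), and 14.2% of the mean intensity in air was left.

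**Figure D1:**
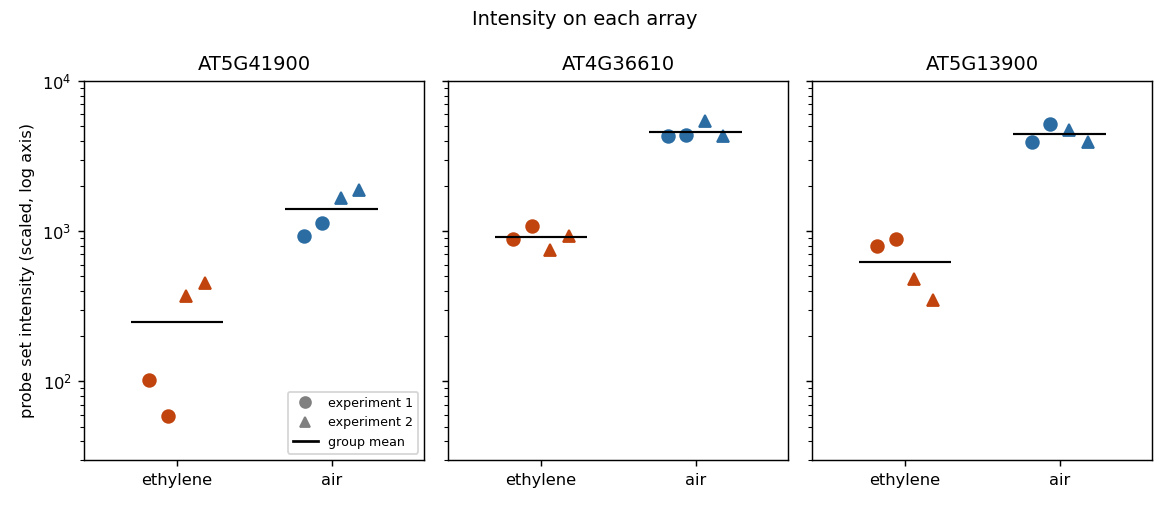
Intensity of the 3 probe sets on each of the 8 arrays, on a log axis, with ethylene left of air in each panel. Circles are experiment 1, triangles experiment 2, and a line marks each group's mean (n = 4). The groups do not overlap in any panel, and AT5G41900 in ethylene has the widest spread, between 58.4 and 455.1.

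In all 3 genes the 4 ethylene arrays lay below the 4 air arrays, which was also so for 6.29% of the probe sets tested, while 4.19% had the 4 ethylene arrays above. The genes were chosen from this contrast, so nothing is read from that count. Over all probe sets tested the median log2 difference was 0.01, and 36 probe sets (0.226%) were at least 4-fold lower in ethylene. The arrays measure RNA from whole seedlings, in which fewer cells of a type and less RNA per cell cannot be told apart.

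**Figure D2:**
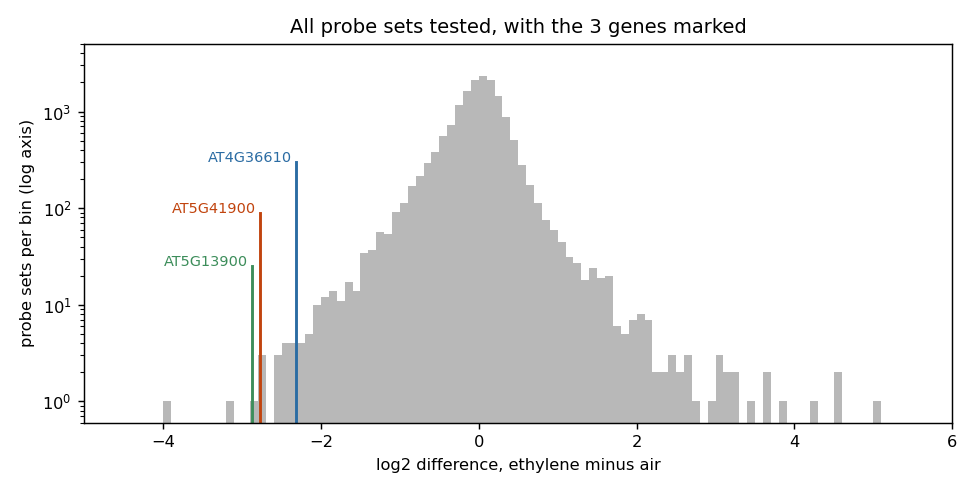
Number of probe sets by log2 difference, ethylene minus air, for the 15922 probe sets tested, in bins of equal width and on a log axis of counts. Vertical lines mark AT5G13900 at −2.87, AT5G41900 at −2.77 and AT4G36610 at −2.32, far below the median of 0.01.

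The decrease was present in each experiment for each gene, with unequal sizes. AT5G41900 had a log2 difference, ethylene minus air, of −2.06 in experiment 2 and −3.48 in experiment 1 (limma SE 0.34 each). Of its mean intensity in air, 23.4% was left in experiment 2 and 7.76% in experiment 1. AT4G36610 had differences of −2.52 in experiment 2 and −2.13 in experiment 1 (SE 0.21 each), with 17.2% and 22.7% left. For AT5G13900 the differences were −3.34 in experiment 2 and −2.40 in experiment 1 (SE 0.23 each), with 9.62% and 18.5% left. The value of AT5G41900 in experiment 1 rests on the 2 dim ethylene arrays, so the genes are not ordered by the size of their decrease.

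Whether the response differed between experiments was tested with the limma contrast of the 2 differences, which the choice of genes did not use. For AT5G41900 the difference in experiment 2 minus that in experiment 1 was 1.42 (95% interval 0.37 to 2.47, adjusted p = 0.805), a smaller decrease in experiment 2. For AT5G13900 it was −0.94 (−1.65 to −0.24, limma adjusted p = 0.805), a larger decrease in experiment 2. For AT4G36610 it was −0.39 (−1.02 to 0.24, limma adjusted p = 0.872). None of the 3 passed after adjustment over all probe sets tested. Across all probe sets limma called 0 higher and 0 lower in this contrast (0% each), the smallest adjusted p was 0.107, and 917 (5.76%) had an unadjusted p under 0.05. The unadjusted p was 0.0117 for AT5G41900, 0.0125 for AT5G13900 and 0.209 for AT4G36610. The intervals leave room for responses of AT5G41900 and AT5G13900 that differ several-fold between experiments, so these values do not show that the experiments responded alike.

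The experiments themselves were then compared, also outside the choice of genes. Averaged over ethylene and air arrays, AT5G41900 was higher in experiment 2 than in experiment 1 (log2 difference 1.48, SE 0.24, limma adjusted p = 0.000788). This average includes the dim ethylene arrays of experiment 1, and the air arrays alone did not pass (adjusted p = 0.147). AT5G13900 was lower in experiment 2, at −0.53 (SE 0.16, limma adjusted p = 0.026), and AT4G36610 had a difference of −0.03 (95% interval −0.35 to 0.29, limma adjusted p = 0.896). By the same test experiment 2 was higher for 18.2% and lower for 12.4% of all probe sets, so a difference between experiments was common on these arrays. The call for AT5G13900 ended without air 1-2 (adjusted p = 0.109), air 2-2 (0.106), ethylene 1-2 (0.0624) or ethylene 2-2 (0.0802).

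The same contrast was also taken within each group. In ethylene, AT5G41900 was higher in experiment 2 than in experiment 1 (log2 difference 2.19, SE 0.34, limma adjusted p = 0.00156). The size of this difference is poorly fixed, since both ethylene values of experiment 1, 102.3 and 58.4, were dim and may be mostly background. It was 2.40 with a pseudocount of 1 and 1.74 with one of 64. The gene passed the filter only through its air arrays, and without the filter the limma adjusted p of this difference was 0.00558. In air, where no value was that dim, the difference was 0.77 (SE 0.34, limma adjusted p = 0.147). AT5G13900 was 2.00-fold lower in experiment 2 among the ethylene arrays (log2 difference −1.002, SE 0.23, limma adjusted p = 0.0134), while its difference in air was −0.06 (SE 0.23, limma adjusted p = 0.887). That call ended without ethylene 1-1 (adjusted p = 0.0523), ethylene 1-2 (0.0567) or ethylene 2-2 (0.0833). AT4G36610 had differences of −0.22 in ethylene (limma adjusted p = 0.511) and 0.16 in air (adjusted p = 0.629). Over all probe sets the calls higher and lower in experiment 2 were 7.7% and 5.94% in ethylene, and 8.57% and 6.56% in air. That a gene passes in ethylene and not in air does not show that the 2 groups differ in this respect. The test of that is the contrast of the 2 responses given above, which no gene passed.

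**Figure D3:**
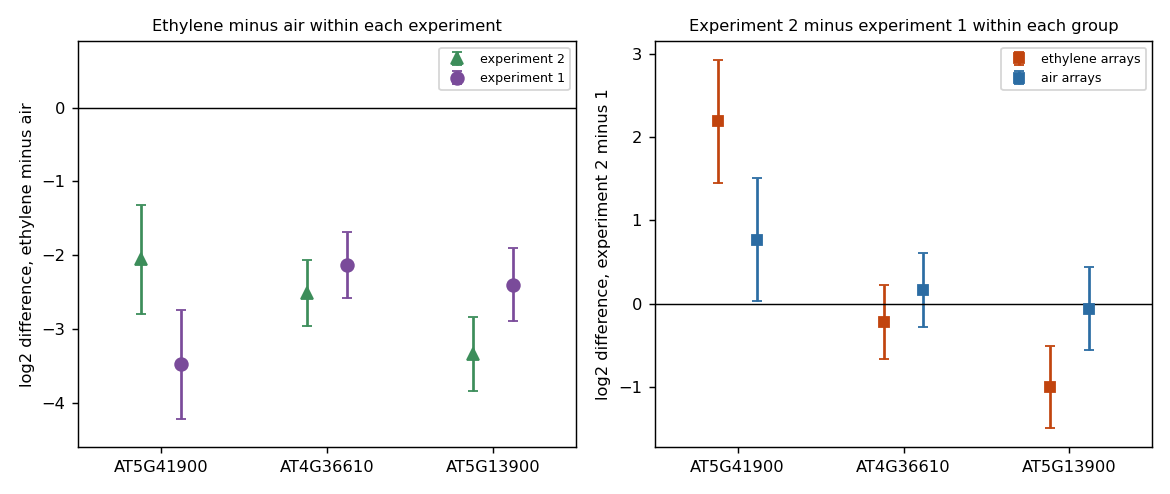
Left, the log2 difference, ethylene minus air, of each gene in experiment 2 (triangles) and in experiment 1 (circles). Right, the log2 difference, experiment 2 minus experiment 1, in ethylene arrays and in air arrays. Bars are 95% intervals from limma with 1 estimate of the spread over 8 arrays. AT5G41900 in ethylene is higher in experiment 2 by 2.19, and AT5G13900 in ethylene is lower by a difference of −1.002.

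How the 3 genes varied together was described by correlation. Over the 8 arrays, log2 values of AT4G36610 and AT5G13900 correlated with r = 0.970, those of AT5G41900 and AT4G36610 with r = 0.817 and those of AT5G41900 and AT5G13900 with r = 0.704. After each array was set against its own group's mean, r was −0.875 for AT5G41900 and AT5G13900, −0.385 for AT5G41900 and AT4G36610 and 0.399 for AT4G36610 and AT5G13900. These values describe 8 arrays that share 2 groups and 2 experiments and are not tested. All 3 genes were chosen for a decrease in ethylene, so high values of r over the 8 arrays follow from the choice.

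The genes whose pattern over the 8 arrays was most like each of the 3 were found by Pearson's r of log2 values among 8673 other tested probe sets that name 1 gene. For AT5G41900 the closest was THE1 (r = 0.985), which encodes THESEUS1, a receptor kinase that monitors the state of the cell wall. THE1 had intensities of 3857.8 and 4401.5 in experiment 2 and 2827.3 and 2166.6 in experiment 1 in ethylene, against 6253.3 and 6846.4 in experiment 2 and 6205.8 and 5318.0 in experiment 1 in air. Its log2 difference, ethylene minus air, was −0.94, which is smaller than that of AT5G41900. It shared with AT5G41900 the low values on both ethylene arrays of experiment 1. For AT5G41900 these values were dim and may be mostly background, so its likeness to other genes is poorly fixed. Next came AT1G76240 (r = 0.982) and AT5G49280 (r = 0.981), with log2 differences of −0.77 and −1.08. Against the group means, r with AT5G41900 was 0.945 for THE1, 0.936 for AT1G76240 and 0.937 for AT5G49280. Experiment 2 minus experiment 1 was 0.46 for THE1 and AT1G76240 and 0.67 for AT5G49280 on the log2 scale, a pattern for which they were in effect picked, so no test is given.

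For AT4G36610 the closest patterns were those of AT3G13980 (r = 0.995), AT4G14380 (r = 0.993) and AT4G16980 (r = 0.986). AT3G13980 averaged 1425 ± 182 in ethylene and 5285 ± 216 in air (SD, n = 4 each), a log2 difference of −1.89. AT4G16980 averaged 5513 ± 933 in ethylene and 23041 ± 1902 in air, a difference of −2.07, and AT4G14380 had a difference of −1.12. All 3 had experiment differences near 0, between −0.03 and −0.0043 on the log2 scale, as AT4G36610 did. For AT5G13900 they were AT5G12420 (r = 0.986), AT5G26270 (r = 0.983) and AT5G66590 (r = 0.983). AT5G12420 averaged 826 ± 211 in ethylene and 3376 ± 461 in air, a log2 difference of −2.04, and like AT5G13900 it was dimmest on ethylene 2-2, at 536.6. AT5G26270 and AT5G66590 had differences of −1.35 and −1.15. These genes were picked for likeness to genes that were themselves chosen from the ethylene contrast, so no test is given for that contrast in them. No gene was among the 3 closest of more than 1 of the genes described.

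**Figure D4:**
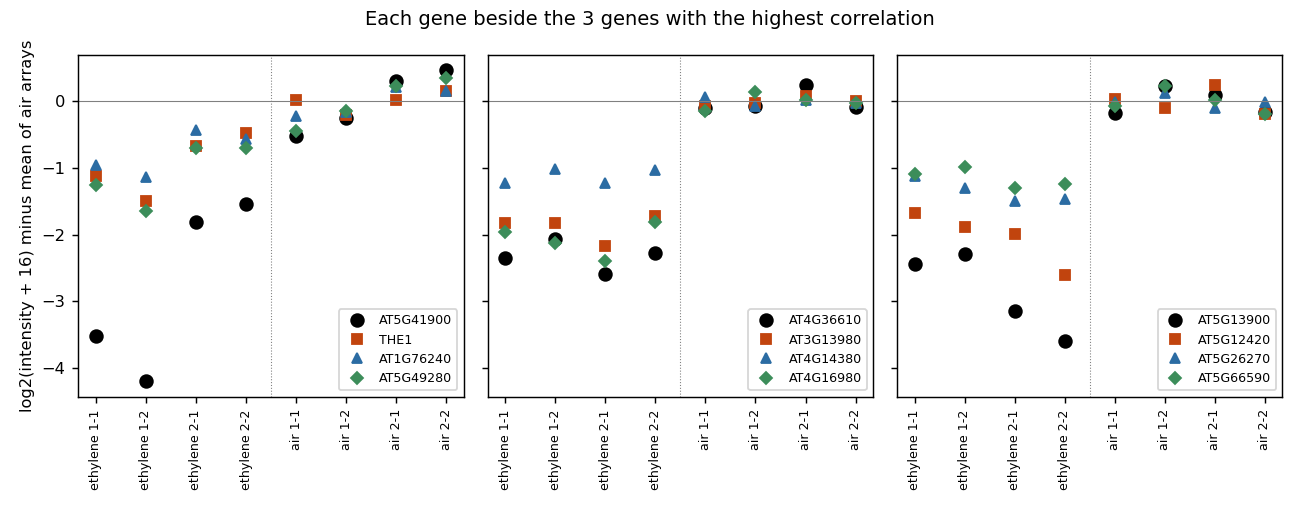
The log2(intensity + 16) on each array minus the mean of the air arrays, for each of the 3 genes (black circles) and the 3 genes with the highest correlation to it (coloured symbols), with the ethylene arrays left of the air arrays. AT5G41900 and its closest genes are lowest on ethylene 1-1 and ethylene 1-2, and AT5G13900 and AT5G12420 are lowest on ethylene 2-2.

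Neighbouring genes were looked up in the gene order of RefSeq assembly TAIR10.1, with 2 protein-coding genes on each side. Of the 4 neighbours of AT5G13900, 3 had a named probe set. The gene next to it on one side is LEP (LEAFY PETIOLE, AT5G13910), which encodes a transcription factor of the AP2/ERF family and rose in ethylene. Its intensity was 4077.9 and 4695.3 in experiment 2 and 5608.8 and 5091.0 in experiment 1 in ethylene, against 2237.1 and 2310.9 in experiment 2 and 2214.1 and 3122.2 in experiment 1 in air. All ethylene arrays lay above all air arrays, as in 4.19% of all probe sets tested, the opposite of AT5G13900 beside it. The log2 difference of LEP was 0.98 (SE 0.17, limma adjusted p = 0.00747), a call that 1.56% of all probe sets tested received in this direction. It missed the threshold with replicas as a random block (adjusted p = 0.0542). The gene on the other side, AT5G13890, had 3583 ± 622 in ethylene and 3089 ± 450 in air (log2 difference 0.21, limma adjusted p = 0.711). The next one, AT5G13880, had a difference of 0.16 (limma adjusted p = 0.906).

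Of the 4 neighbours of AT5G41900, 2 had a named probe set. AT5G41890, directly beside it, was under the filter, with 28.9 ± 14.7 in ethylene and 79.6 ± 59.9 in air (SD, n = 4 each). POLA3 (AT5G41880), which encodes a subunit of DNA polymerase alpha, had 940 ± 225 in ethylene and 826 ± 91.9 in air, and its arrays overlapped (log2 difference 0.16, limma adjusted p = 0.859). Both measured neighbours of AT4G36610, AT4G36600 and AT4G36590, were also under the filter, with arrays that overlapped between the groups. Of the 4 measured neighbours of the 3 genes that passed the filter, 1 was called higher (LEP) and 0 were called lower, where 2.55% of all probe sets tested were called lower. At an unadjusted p under 0.05 the count lower was also 0, but the share of all probe sets at that threshold is not given here.

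The 2 hydrolase genes were also set beside a list of 6 loci written down as BODYGUARD and its relatives, whose placement rests on background knowledge and was not checked against sequences. Of these, 5 had a named probe set, AT5G41900 and AT4G36610 included, and BODYGUARD itself is not analysed here. Of the other 3, AT5G17780 rose in ethylene. It had intensities of 1772.2 and 2015.1 in experiment 2 and 2202.3 and 1313.6 in experiment 1 in ethylene, against 411.6 and 461.5 in experiment 2 and 590.4 and 267.9 in experiment 1 in air. Its groups did not overlap, as in 4.19% of all probe sets tested with ethylene higher. The log2 difference of AT5G17780 was 2.06 (SE 0.26, limma adjusted p = 0.00149), a call that 1.56% received in this direction. It was opposite in direction to AT5G41900 and AT4G36610. The list was written with earlier results of these data known, so nothing about the family is read from this. AT4G24140 had 350 ± 215 in ethylene and 500 ± 54.1 in air (log2 difference −0.65, SE 0.36, limma adjusted p = 0.486). AT5G17720 was under the filter, at 15.0 to 26.7 in ethylene and 25.8 to 67.6 in air.

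Little of the wider pathway of surface lipids could be read. Lists of cutin, wax and suberin synthesis, lipid export and cuticle regulation held 71 loci, of which 6 had a named probe set and 4 passed the filter. Of the 4, limma called 0 higher and 0 lower, where 1.56% of all probe sets tested were called higher and 2.55% lower. At the looser threshold of an unadjusted p under 0.05, 1 was lower (WSD1). The share of all probe sets at that threshold is not given here, so nothing is read from this count. The median log2 difference of the 4 was −0.15, against 0.01 over all probe sets. With the experiment as a block, which called 4.33% higher and 7.35% lower, 1 of the 4 was called lower. This was WSD1, a wax ester synthase, with 510.9 and 539.0 in experiment 2 and 368.8 and 410.7 in experiment 1 in ethylene, against 1702.5 and 1605.6 in experiment 2 and 652.3 and 778.9 in experiment 1 in air. Its groups did not overlap, as in 6.29% of all probe sets tested with ethylene lower. The log2 difference of WSD1 was −1.24 (SE 0.33, limma adjusted p = 0.0674, or 0.00117 with the block). WSD1 passed in 5 of 19 alternatives, which besides the block were the 4 numbered pairs as a block (limma adjusted p = 0.00316), experiment 2 alone (0.0026), median scaling (0.0477) and leaving out air 1-1 (0.0349). In the same order, these called 1133, 641, 364 and 303 of all probe sets lower, against 406 in the main fit. Its log2 difference was −1.63 in experiment 2 alone and −0.85 in experiment 1 alone (adjusted p = 0.284).

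The other 3 of these genes had smaller differences. FATB, a thioesterase that releases saturated fatty acids in plastids, had a log2 difference of 0.19 (limma adjusted p = 0.667). DEWAX (AT5G61590), a repressor of wax synthesis, had 4475 ± 739 in ethylene and 5588 ± 1013 in air, a difference of −0.32 (limma adjusted p = 0.508). FACT, a caffeoyl transferase of suberin-associated waxes, had a difference of 0.02 (limma adjusted p = 0.989). SHN3, an AP2/ERF activator of cuticle genes, was under the filter, at 15.9 to 151.9 in ethylene and 81.3 to 165.6 in air, and so was AT5G33370.

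Markers of cell types were measured in part. Of 6 epidermal markers only ACR4, a receptor kinase of the epidermis, had a named probe set. Its intensity was 399.7 to 875.1 in ethylene and 726.4 to 859.9 in air, with a log2 difference of −0.34 (limma adjusted p = 0.682). Of 5 root hair markers 3 were measured, and their summed intensity was 6039 to 8250 in ethylene and 3220 to 5526 in air, with none at 0. EXPA7 rose (limma adjusted p = 0.0483), and EXPA18 did not pass (0.266, or 0.0452 with the experiment as a block), where 1.56% of all probe sets were called higher without the block and 4.33% with it. The call of EXPA7 ended in 13 of 20 alternatives. The marker lists were written with earlier results of these data known, so the values of these genes are no independent readout of root hair cells. XTH26 had 467.1 to 1390.1 in ethylene and 14.7 to 209.1 in air. Its air values were all under the intensity of 249 that the filter admits as a mean, so it passed the filter only through its ethylene arrays, and no test is given for it. The part of root hair cells or of epidermal cells in the differences of the 3 genes was not tested. Markers of endodermis, root cap and vascular tissue had no named probe set and are not analysed here. Of 5 etiolated seedling markers, PORB and ICL were measured, with a summed intensity of 102677 to 175606 in ethylene and 81119 to 123907 in air. PORB, an enzyme of chlorophyll synthesis, had 35268 to 68256 in ethylene and 27524 to 35070 in air, which do not overlap (log2 difference 0.60, limma adjusted p = 0.172, or 0.0247 with the experiment as a block). Of all probe sets tested, 4.19% had no overlap with ethylene higher. ICL, isocitrate lyase, had overlapping groups and a difference of 0.26 (limma adjusted p = 0.746, or 0.472 with the block).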

How the data were processed

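The samples were 8 single-colour Affymetrix arrays of Col-0 seedlings, 4 of ethylene and 4 of air, grouped by their titles. The authors deposited 1 linear intensity per probe set and array. How the arrays were scanned, summarised, scaled and called for detection is not given in the sources used here, and the number of arrays limits the precision. Gene names came from the array annotation, which gives 1 gene for 13513 probe sets and several for 503, and does not list 8730. Of the 13513, 13436 matched RefSeq (TAIR10.1) by gene number.

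Intensities were converted to log2(intensity + 16), which understates changes of dim probe sets. The 64 controls were left out, as were the dimmest 30% by mean, and 15922 were fitted with limma 3.58.1 (lmFit, eBayes with a trend, R 4.3.3). One model had group only, and another a mean for each experiment and group. Calls were at a Benjamini-Hochberg adjusted p under 0.05 over all probe sets, and intervals are 95%. The scripts were tested on simulated data. Tables and plots used Python 3.11.15, pandas 2.3.3 and matplotlib 3.10.9.

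Per the labels, both groups share the experiment that a sample's first number gives. Deviations from group means of same-numbered ethylene and air arrays correlated with r = 0.327, 0.394, 0.593 and 0.464. Pairs of the same experiment with different numbers had values of a like size, 0.345, 0.502, 0.280 and 0.528. Pairs across experiments had −0.25 or less, which is partly forced, since deviations from a group mean cancel out within the group. Blocking by experiment was an alternative, beside other pseudocounts, filters and scalings, no trend, other blocks, single experiments and each array left out.

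The 3 genes and the lists were chosen with earlier results of these data known. Besides the 3 genes, called members of the lists, the measured loci of the BODYGUARD list and the 3 genes most like each were to be named. Neighbours were named by position, and other list genes and LEP after their values were seen. A count of families by annotation text found no named probe set and was not used. No genome build is given for the table, so coordinates are left out.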

Additional observations from a re-analysis of the deposited data

Results flagged for a closer look

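AT4G36610 on air 2-1 had an intensity of 5437.5, while the other air arrays lay between 4273.5 and 4376. The gap to the nearest of them was 91.2% of the range of the 4 air arrays, which is above Dixon's 95% critical value for 4 values. Such a gap is met by chance in about 1 in 20 groups, and 6 groups were examined. Without air 2-1 the log2 difference of AT4G36610, ethylene minus air, was −2.24, against −2.32 with it.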

How the results depend on the processing

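The log2 difference, ethylene minus air, of the 3 genes stayed negative under every alternative run. It lay between −3.48 and −2.06 for AT5G41900, between −2.52 and −2.13 for AT4G36610 and between −3.34 and −2.40 for AT5G13900, and in each gene the ends were the experiments alone. For AT4G36610 experiment 1 alone gave −2.128 and experiment 2 alone −2.515, and for AT5G13900 they gave −2.398 and −3.342. AT5G41900 was under the filter when 50% of probe sets were left out and has no value there. Leaving out 1 array gave −3.18 to −2.29 for AT5G41900, −2.41 to −2.23 for AT4G36610 and −3.06 to −2.63 for AT5G13900.

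The number of probe sets called higher was 249, and 689 with the experiment as a replicate block, 643 with the 4 numbered pairs as a replicate block, 119 with a random block of replicas, 374 in experiment 1 alone and 387 in experiment 2 alone. The number called lower was 406, and 1170, 1133 and 130 with these blocks and 641 in experiment 2 alone. Leaving out 1 array gave 164 to 204 higher, the lowest without ethylene 1-2. It gave 214 to 315 lower. The count was 214 when air 2-1 was left out, 238 for air 2-2, 243 for air 1-2, 246 for ethylene 1-2 and 266 for ethylene 2-2. Fewer arrays leave fewer degrees of freedom. The cause of the other shifts was not tested. In the wax list 1 gene, WSD1, was called with the experiment as a replicate block, against 0 without it.

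Experiment 2 minus experiment 1 for AT5G13900 was −0.64 to −0.42 without 1 array (adjusted p up to 0.109), and in ethylene −1.23 to −0.78 (up to 0.0833). For AT4G36610 it ranged from −0.11 to 0.053, and in air from −0.0021 to 0.33. For AT5G13900 in air it ranged from −0.26 to 0.14. These differences near 0 had no fixed sign. For AT5G41900 the difference stayed positive under each alternative that gave a value. It was 1.24 to 1.65 averaged over the groups and 1.74 to 2.52 in ethylene. Both ranges rest on the ethylene values of experiment 1, 102.3 and 58.4, which were dim and may be mostly background. The gene passed the filter only through its air arrays, and the stricter filter left it out. Whether background makes up these values was not tested by any alternative, so the ranges do not show that the calls are secure. The contrast of the responses of the 2 experiments was passed by none of the 3 genes under any alternative (adjusted p of at least 0.55).

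Among other named genes, signs turned for ACR4 (0.035) and AT5G13890 (−0.061) in experiment 2 alone and for POLA3 (−0.042) in experiment 1 alone. FACT turned to −0.175 in experiment 1 alone, and lay between −0.077 and 0.207 without 1 array. None of these 4 genes was called.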
